A study of Homo sapiens with 5 samples.

Results

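Annexins and S100 proteins were followed as transcripts in NCI-H209, an established human small cell lung cancer (SCLC) line, cultured alone (control, 3 libraries) or kept for 24 h with human brain microvascular endothelial cells (HBMECs) in a Transwell system (co-cultured, 2 libraries). The members were taken by gene symbol, as the numbered ANXA and S100A genes with S100B, S100P and S100Z, and 23 of the 32793 genes in the naming table met this rule, 9 annexins and 14 S100 genes. The HBMECs are a separate cell type held apart by the porous membrane of the insert, so that medium is shared without cell contact. The study collected the NCI-H209 cells, and the libraries are labelled as such. The groups differ in co-culture alone according to the labels, no engineered allele or transgene is named for the line, and all libraries come from this single line, with no statement of whether the replicates were separate cultures. The p-values therefore measure the spread between these libraries, which may be technical. A further 8 genes of both families, ANXA8, ANXA8L1, ANXA10, ANXA13, S100A5, S100A8, S100A12 and S100A16, had at most 1 count in any library and were not in the naming table.

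Annexins are calcium-dependent proteins that bind acidic phospholipids at the inner face of membranes and take part in membrane trafficking, membrane repair and the organisation of the actin cortex. S100 proteins are small calcium sensors of the EF-hand type that mostly act as dimers and bind the N-terminal tails of several annexins. The best known complex joins S100A10, which is locked in an open form without calcium, to annexin A2, and at the cell surface this complex binds plasminogen and its activators. S100A11 binds annexins A1 and A2, and S100A6 binds annexins A2 and A11. Most S100 genes lie in a cluster on the long arm of chromosome 1, whereas the annexin genes are scattered over the genome.

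The windows of 250 bases before the RefSeq transcription starts (GRCh38.p14) of ANXA2 and of the S100 genes whose products bind it are shown because the complexes of these members carry the comparison described further on. Each is written 5′ to 3′ on the strand of its gene, and capitals mark the letters searched on both strands. These were TGANTCA for AP-1, GGGCGG for the GC box, TATAAA for the TATA box and, for the core of hypoxia response elements, ACGTG with its variant form GCGTG. The core may overlap a GC box or an AP-1 match. The windows are chr15:60397987-60398236 for ANXA2, chr1:151993860-151994109 for S100A10, chr1:152037005-152037254 for S100A11, chr1:153535992-153536241 for S100A6 and chr1:153545807-153546056 for S100A4, all on the minus strand.
ANXA2: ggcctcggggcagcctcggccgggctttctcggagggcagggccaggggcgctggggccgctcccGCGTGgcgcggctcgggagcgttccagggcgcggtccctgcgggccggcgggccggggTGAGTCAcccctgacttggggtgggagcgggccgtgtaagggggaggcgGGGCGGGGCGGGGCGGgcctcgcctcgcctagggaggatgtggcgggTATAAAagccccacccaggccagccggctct
S100A10: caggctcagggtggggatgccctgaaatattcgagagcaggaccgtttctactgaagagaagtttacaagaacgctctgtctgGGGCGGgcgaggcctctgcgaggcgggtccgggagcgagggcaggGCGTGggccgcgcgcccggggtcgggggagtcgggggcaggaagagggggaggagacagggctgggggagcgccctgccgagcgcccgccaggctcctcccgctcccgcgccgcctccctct
S100A11: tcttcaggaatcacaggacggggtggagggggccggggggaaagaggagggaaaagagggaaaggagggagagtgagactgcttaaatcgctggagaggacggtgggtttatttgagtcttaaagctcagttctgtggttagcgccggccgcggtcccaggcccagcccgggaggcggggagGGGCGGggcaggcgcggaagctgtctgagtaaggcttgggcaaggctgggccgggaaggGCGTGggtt
S100A6: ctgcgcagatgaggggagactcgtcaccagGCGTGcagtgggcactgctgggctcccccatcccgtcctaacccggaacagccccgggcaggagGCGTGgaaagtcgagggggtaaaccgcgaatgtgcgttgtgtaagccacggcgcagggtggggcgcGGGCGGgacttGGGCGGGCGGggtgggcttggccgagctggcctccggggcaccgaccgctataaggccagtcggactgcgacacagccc
S100A4: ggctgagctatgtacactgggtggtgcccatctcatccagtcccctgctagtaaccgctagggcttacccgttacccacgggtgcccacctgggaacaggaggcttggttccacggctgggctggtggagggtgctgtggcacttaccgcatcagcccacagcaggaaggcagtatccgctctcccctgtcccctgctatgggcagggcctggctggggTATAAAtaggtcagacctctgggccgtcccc

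The ANXA2 window held 1 AP-1 match 127 bases before the start, 3 overlapping GC boxes, 1 hypoxia core and a TATA box 31 bases before the start. The S100A4 window had a TATA box at the same distance and no match to the other motifs, whereas S100A10, S100A11 and S100A6 had GC boxes and hypoxia cores and no TATA box. Among the 29 windows of the 22 members found in the RefSeq table, TATA boxes were in 9 (31.0%), against 10.8% of all 34943 windows. AP-1 matches were in 3 of the 29 windows (ANXA2, S100A2 and S100A3), against 6.59% of all windows. Hypoxia cores were in 15 and GC boxes in 13, against 43.2% and 42.5% of all windows. These are matches of letters, and binding was not measured.

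Library totals ran from 15457071 to 19157348 counts, and 3 counts corresponded to 0.157 to 0.194 counts per 1000000 counts (CPM). Unmapped reads made up 8.13% to 8.48% of control and 15.9% to 16.8% of co-cultured libraries. The first principal component (64.7% of the variance) separated the groups and the second (18.3%) set control replicate 1 apart. Of 12 neuroendocrine markers of SCLC, 11 were tested, 4 were called higher and 2 lower, beside 18.4% and 15.0% of all genes tested. SYP (synaptophysin) had a mean of 59.5 CPM in control and 88.2 CPM in co-cultured libraries, while CHGA had at most 1 count in every library. The summed level of 17 endothelial markers was 10.1 to 19.6 CPM in control and 13.6 CPM in both co-cultured libraries. MMRN1 and PLVAP were at 0 in every library, VWF had 159, 75 and 87 counts in control libraries, and 87 and 90 counts in co-culture, and PECAM1 had 14, 10 and 3 against 18 and 11. Of the 8 endothelial markers tested, 1 was called higher and none lower, beside the same 18.4% and 15.0% of all genes. The higher one was ESAM (log2 fold change 2.14, edgeR quasi-likelihood adjusted p = 0.00666), which is named after its value was seen. ESAM had 3, 4 and 6 counts in control libraries and 21 and 14 counts in co-culture. It passed the filter on low counts through the co-cultured libraries, so its call is not evidence of a change in these markers. Among those not called, 2 had 24 to 37 counts in control replicates 1 and 2, 0 and 2 counts in control replicate 3, and 3 to 12 counts in co-cultured libraries. Control replicates 1 and 2 held reads of fibroblast markers (summed 11.1 and 10.1 CPM) that were near 0 in control replicate 3 (1.38 CPM), with 2.73 and 4.10 CPM in co-cultured libraries. Their part in the results was not tested, and the counts of members called are given without both libraries where the processing is discussed.

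Transcripts of both families were more abundant in co-cultured than in control NCI-H209 cells. The filter on low counts kept 16 of the 23 members, 8 annexins and 8 S100 genes. Of these, 12 were higher in co-culture at an adjusted p under 0.05, and none was lower (ANXA9 had the only negative log2 fold change, -0.14, not called). Across all 20360 genes tested, 18.4% were called higher and 15.0% lower. By the study's criterion for differentially expressed genes (DEGs), read here as a log2 fold change beyond 1 with an unadjusted p under 0.05 because the scale of the fold change and the kind of p are not stated, 8 members were upregulated and none downregulated, against 5.44% and 5.01% of all genes tested. In 13 members both co-cultured libraries lay above all control libraries, against 29.4% of all genes, and in none did both lie below them, against 30.0%. The median log2 fold change was 0.36 over the annexins tested and 1.58 over the S100 genes tested, beside -0.03 over all genes tested. Without control replicates 1 and 2, a single control library was left, and log2 fold changes of the members ran from -0.28 for ANXA9 to 2.75 for S100A4. S100A2 and S100A4 had under 10 counts in each control library and so passed the filter through the co-cultured libraries. In bulk RNA, a change in the number of cells that make a transcript and a change in the amount per cell cannot be told apart.

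**Figure D1:**
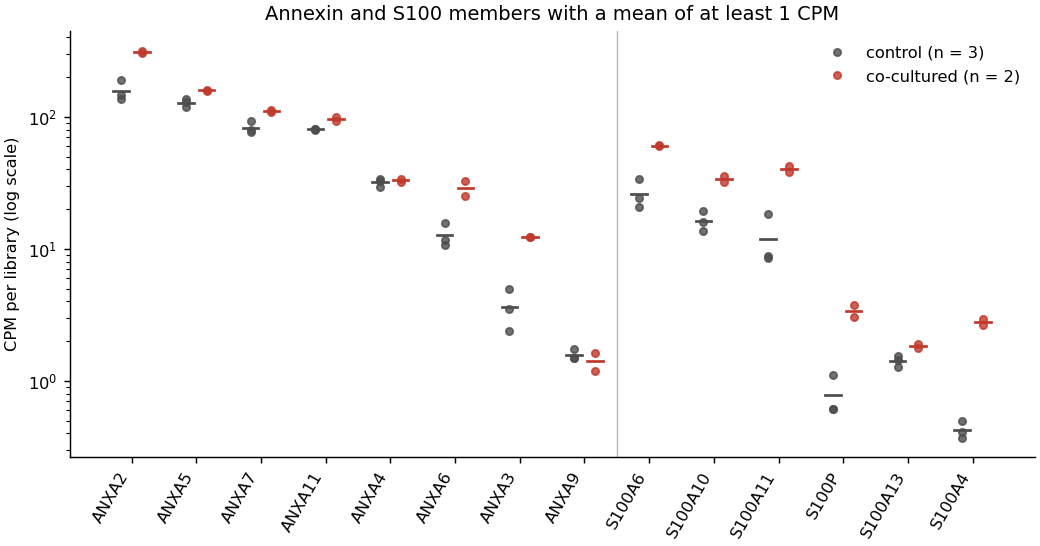
Each point is the level of one member in one library in CPM on a log axis, for members with a mean of at least 1 CPM, with control and co-cultured libraries in separate colours. ANXA2 had the highest CPM in every library, from 137 to 317 CPM, and the co-cultured points of S100A6, S100A10 and S100A11 lay above all their control points.

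Among the annexins, ANXA2 (ENSG00000182718.16, chr15:60347134-60402883, minus strand, GRCh38) held the most reads. It stood at 190.03, 137 and 147 CPM in control libraries and at 317 and 305 CPM in co-cultured libraries. The groups did not overlap, and the lowest co-cultured library was above the highest control library, replicate 1. Mean levels were 158 ± 28.1 CPM in control (SD, n = 3) and 311 ± 9.01 CPM in co-culture (SD, n = 2), and the rise was 0.98 on the log2 scale (SE 0.127, edgeR quasi-likelihood adjusted p = 0.000603).

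The steepest rise of an annexin was that of ANXA3 (ENSG00000138772.12, chr4:78551519-78610451, plus strand), a minor annexin in these cells. It was at 5.00, 3.48 and 2.41 CPM in control libraries, and at 12.3 and 12.2 CPM in co-culture. The control libraries were uneven, with replicate 1 the highest, and all lay under both co-cultured libraries. Its log2 fold change was 1.76 (SE 0.249, edgeR adjusted p = 0.000938), which is 3.38-fold. ANXA6 (ENSG00000197043.13, chr5:151100712-151157882, minus strand), which carries a duplicated annexin core and binds late endosomes and the plasma membrane, was at 11.7, 10.7 and 15.7 CPM in control libraries, and at 32.8 and 25.3 CPM in co-culture. Its log2 fold change was 1.19 (SE 0.174, edgeR adjusted p = 0.00108), and the groups did not overlap. ANXA3 and ANXA6 were the annexins among the upregulated DEGs. Read on the log2 scale, that criterion was missed by ANXA2 at 1.97-fold.

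Small rises were measured for the remaining abundant annexins. ANXA5 (ENSG00000164111.14, chr4:121667955-121697113, minus strand), the phosphatidylserine-binding protein used to stain dying cells, was at 135, 119 and 130.1 CPM in control libraries, and at 157 and 161 CPM in co-culture. It rose by 0.31 on the log2 scale (SE 0.0818, edgeR adjusted p = 0.0181). ANXA7 (ENSG00000138279.15, chr10:73375101-73414076, minus strand), first known as synexin for its part in granule fusion, was at 92.3, 76.4 and 79.6 CPM in control libraries, and at 112 and 108 CPM in co-culture. Its log2 fold change was 0.41 (SE 0.0935, edgeR adjusted p = 0.00898). ANXA11 (ENSG00000122359.17, chr10:80150889-80205572, minus strand), the partner of S100A6 that also links RNA granules to lysosomes, was at 78.9, 80.3 and 81.5 CPM in control libraries, and at 99.1 and 92.5 CPM in co-culture. Its rise of 0.26 on the log2 scale (SE 0.0746, edgeR adjusted p = 0.0271) was the smallest of the members called. In all of these the groups did not overlap, but each call was lost under some of the other settings tried: without co-cultured replicate 1 the adjusted p was 0.0980 for ANXA5 and 0.0826 for ANXA7, and for ANXA11 it reached 0.220.

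Changes in the other annexins did not pass the test. ANXA4 (ENSG00000196975.15, chr2:69644425-69827100, plus strand), an annexin of epithelial membranes, was at 34.0, 29.6 and 32.7 CPM in control libraries, and at 31.9 and 34.1 CPM in co-culture. Its log2 fold change of 0.04 had a 95% interval of -0.18 to 0.26 (edgeR adjusted p = 0.796), and the groups overlapped. ANXA9 (ENSG00000143412.9, chr1:150982017-150995634, plus strand), an atypical annexin with altered calcium sites, was at 1.49, 1.49 and 1.74 CPM in control libraries, and at 1.64 and 1.19 CPM in co-culture, with a log2 fold change of -0.14 (95% interval -0.80 to 0.52, edgeR adjusted p = 0.739). The strand opposite to ANXA9 held 64 to 114 counts per library, more than the 18 to 34 counts of the gene itself, although no exon is annotated there. ANXA1, the glucocorticoid-induced annexin that signals through formyl peptide receptors, did not pass the filter, with 5, 10 and 0 counts in control libraries, and 3 and 2 counts in co-culture.

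The S100 genes tested that were called higher had log2 fold changes of 1.06 to 2.70, and the annexins called had 0.26 to 1.76. The top of the S100 range is that of S100A4, which passed the filter through the co-cultured libraries. S100A6 (ENSG00000197956.9, chr1:153534599-153536244, minus strand), also called calcyclin, held the most reads of its family, at 33.6, 20.7 and 24.4 CPM in control libraries, and at 60.3 and 60.9 CPM in co-culture. The co-cultured libraries were nearly equal, and both lay above the control libraries. The log2 fold change was 1.21 (SE 0.166, edgeR adjusted p = 0.000803). S100A10 (ENSG00000197747.8, chr1:151982915-151994390, minus strand), the subunit that joins annexin A2, was at 19.2, 13.8 and 15.9 CPM in control libraries, and at 35.9 and 32.2 CPM in co-culture. Its log2 fold change was 1.06 (SE 0.141, edgeR adjusted p = 0.000661), with no overlap between groups.

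S100A11 (ENSG00000163191.5, chr1:152032506-152047907, minus strand), the partner of annexins A1 and A2, was at 18.4, 8.57 and 8.76 CPM in control libraries, and at 42.4 and 38.0 CPM in co-culture. Control replicate 1 had a level above the other control libraries by more than their difference, and the co-cultured libraries were higher still. The log2 fold change was 1.76 (SE 0.275, edgeR adjusted p = 0.00151), and without control replicate 1 it was 2.22. That library was the highest of the controls in 10 of the 16 members tested and in 8 of the 12 called.

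The steepest rises among the members tested were in S100 genes of low level. Of these, S100A4 and S100A2 passed the filter through the co-cultured libraries. The filter therefore favoured a steep rise in both, and their rank and p are not evidence of one. S100A4 (ENSG00000196154.11, chr1:153543613-153550136, minus strand), known as metastasin and a regulator of non-muscle myosin, had 7, 9 and 8 counts in control libraries, and 54 and 40 counts in co-culture. Means were 0.426 ± 0.0644 CPM in control (SD, n = 3) and 2.80 ± 0.219 CPM in co-culture (SD, n = 2), with a log2 fold change of 2.70 (SE 0.309, edgeR adjusted p = 0.000315). Its opposite strand held 6 to 11 counts in every library, beside 7 to 9 counts on its own strand in control, and with both strands counted the log2 fold change was 1.88. S100P (ENSG00000163993.6, chr4:6693069-6697170, plus strand), a ligand of the receptor RAGE that lies outside the cluster, had 21, 11 and 12 counts in control libraries, and 69 and 46 counts in co-culture. Means were 0.780 ± 0.292 CPM in control (SD, n = 3) and 3.40 ± 0.518 CPM in co-culture (SD, n = 2), with a log2 fold change of 2.12 (SE 0.321, edgeR adjusted p = 0.00129). S100A2 (ENSG00000196754.10, chr1:153561108-153567890, minus strand), an S100 protein of epithelia, had 1, 7 and 7 counts in control libraries, and 22 and 13 counts in co-culture. The log2 fold change was 1.94 (SE 0.578, edgeR adjusted p = 0.0297), and DESeq2 gave an adjusted p of 0.0539.

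S100A13 and S100A14 were tested and not called. S100A13 (ENSG00000189171.14, chr1:153618787-153631360, minus strand), which takes part in the release of fibroblast growth factor from cells, was at 1.44, 1.27 and 1.54 CPM in control libraries, and at 1.91 and 1.78 CPM in co-culture. The log2 fold change was 0.38 (95% interval -0.22 to 0.99, edgeR adjusted p = 0.301). Its exons share 536 bases with another entry of the same strand, AL162258.1, so reads there may be missing from its count. A further 235 bases are shared with S100A1 on the opposite strand, which the strand-specific counts keep apart. S100A14, an epithelial S100 gene, had 11, 2 and 2 counts in control libraries, and 16 and 8 counts in co-culture, with overlapping groups (log2 fold change 1.40, 95% interval -0.17 to 2.96, edgeR adjusted p = 0.153).

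**Figure D2:**
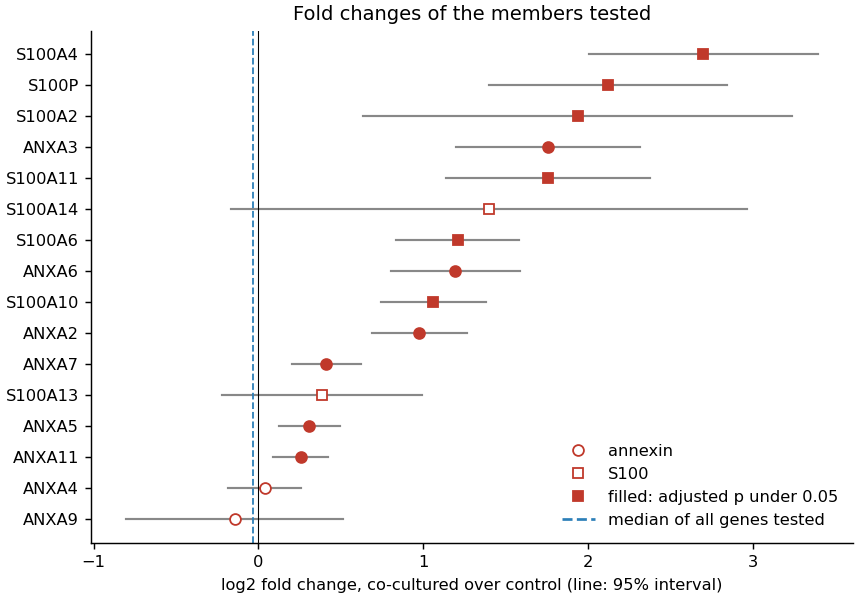
Points are log2 fold changes of co-cultured over control for the 16 members tested, with lines for 95% intervals from the edgeR fit. They run from -0.14 for ANXA9 to 2.70 for S100A4, and the intervals of ANXA4, ANXA9, S100A13 and S100A14 include 0.

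The 7 members under the filter were ANXA1 and the S100 genes S100A1, S100A3, S100A7, S100A9, S100B and S100Z. S100A9, which pairs with S100A8 to form calprotectin in neutrophils and monocytes, had 3, 1 and 0 counts in control libraries, and 17 and 6 counts in co-culture. Relative to library totals this is a ratio of 9.30, with a counting interval of 3.18 to 37.0. Its partner S100A8 had 1 count in 1 co-cultured library and none elsewhere. The myeloid markers summed to 2.05 to 4.15 CPM in control libraries, and 5.96 and 6.21 CPM in co-culture. Of the 3 tested, 1 was called higher and none lower, beside 18.4% and 15.0% of all genes tested. The higher one was the integrin gene ITGAM (log2 fold change 2.52, edgeR adjusted p = 0.000236, named after its value was seen). ITGAM was at 0.904, 0.664 and 0.614 CPM in control libraries. At 3.99 and 4.43 CPM in co-culture, it made up most of the co-cultured sum. Not all myeloid markers moved that way. FCGR3B had 10, 6 and 0 counts in control libraries and 0 in co-culture, and another marker had 27, 14 and 0 counts and 0 in co-culture. The part of such transcripts in the S100A9 counts was not tested. S100A3, known from hair cuticle, was at 0 in all control libraries and had 2 and 10 counts in the co-cultured libraries. With 3 counts put in for the control group, the ratio relative to library totals was 6.47. That ratio is not a lower bound, since it leaves out the counting error of the co-cultured libraries. S100B, a marker of glia, had 0 to 3 counts in control and 7 and 3 counts in co-culture, a ratio of 3.23 with a counting interval of 1.01 to 12.1. With a filter that kept every gene with at least 1 count, S100A9 was called higher (edgeR adjusted p = 0.000506) and S100B was not (adjusted p = 0.260). The counts of S100A1, the cardiac S100 protein, S100A7, known as psoriasin, and S100Z did not exceed 6 in any library, with control ranges of 1 to 2, 0 to 1 and 1 to 6 and co-cultured ranges of 0 to 3, 0 to 1 and 2 to 3. These intervals cover counting error only.

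Levels of different members can be compared per length, as CPM per kilobase of the principal transcript. The order depends on the length chosen. On this scale ANXA2 was the highest in both groups, at 94.3 ± 16.8 in control (SD, n = 3) and 186 ± 5.38 in co-culture (SD, n = 2). ANXA5 followed at 72.7 ± 4.82 in control and 90.1 ± 1.52 in co-culture, where it could not be told from S100A6, at 90.1 ± 0.592. In control S100A6 stood at 39.0 ± 9.84, within its spread of ANXA7 at 38.1 ± 3.87. S100A11 moved from 20.0 ± 9.46 to 67.7 ± 5.27 CPM per kilobase and went from the fifth to the fourth place, past ANXA7 at 50.7 ± 1.08. S100A10 held the sixth place in both groups, at 13.6 ± 2.30 and 28.3 ± 2.17. ANXA11 and ANXA4 came next, both at 11.5 in control and at 13.8 and 11.8 in co-culture, where the principal transcript of ANXA11 is long (6965 bases). Per kilobase of all annotated exons joined, ANXA2 was instead at 17.9 in control and 35.2 in co-culture, below ANXA5 (42.2 and 52.3), ANXA7 (28.9 and 38.5) and S100A6 (27.0 and 62.4), and in co-culture also below S100A11 (59.1).

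Summed over members, annexin transcripts made up 549, 459 and 490.5 CPM in control, with 764 and 739 CPM in co-culture, so that the ratio of the means was 1.505. S100 transcripts summed to 75.45, 46.1 and 52.5 CPM in control, with 151 and 142 CPM in co-culture, so that the ratio was 2.52. The composition shifted within each family. ANXA2 supplied 31.5% of the annexin CPM in control and 41.4% in co-culture, while the share of ANXA5 went from 25.7% to 21.1% and that of ANXA7 from 16.6% to 14.7%. Of the S100 CPM, S100A11 supplied 19.9% in control and 27.5% in co-culture, S100A6 45.3% and 41.5%, and S100A10 28.5% and 23.2%.

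The ratio of each S100 transcript to that of its annexin partner addresses whether the members of a complex moved by the same factor. The level of such a ratio depends on the lengths used, here those of the principal transcripts, and its difference between groups does not. S100A10 and ANXA2 kept nearly the same ratio per kilobase, at 0.141, 0.140 and 0.151 in control libraries, with 0.158 and 0.147 in co-culture. The groups overlapped, with a log2 difference of 0.08 (exact permutation p = 0.3, two-sided, 0.3 adjusted over 5 pairs). S100A11 to ANXA2 was 0.273, 0.176 and 0.168 in control, with 0.377 and 0.352 in co-culture (log2 difference 0.86). S100A6 to ANXA2 was 0.440, 0.375 and 0.414 in control, with 0.474 and 0.498 in co-culture (log2 difference 0.25). S100A6 to ANXA11 was 4.40, 2.66 and 3.10 in control, with 6.30 and 6.81 in co-culture (log2 difference 0.98). In these 3 pairs both co-cultured libraries lay above all control libraries, and the exact permutation p was 0.2 for each (0.25 adjusted). S100A4 to ANXA2 had the largest difference, from 0.00547, 0.0101 and 0.00780 in control to 0.0260 and 0.0242 in co-cultured libraries (log2 difference 1.73, exact permutation p = 0.1, 0.25 adjusted). S100A4 had 7, 9 and 8 counts in control libraries and passed the filter through the co-cultured libraries. The filter therefore favoured a high ratio in co-culture for this pair, and its rank and p are not evidence of a shift. With 3 libraries against 2 the smallest p that this test can give is 0.1, so no pair could pass. When both strands were counted, the log2 difference of S100A4 to ANXA2 was 0.86. The pairs S100A11 with ANXA1 and S100A1 or S100B with ANXA6 were not computed, because 1 member of each was under the filter.

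**Figure D3:**
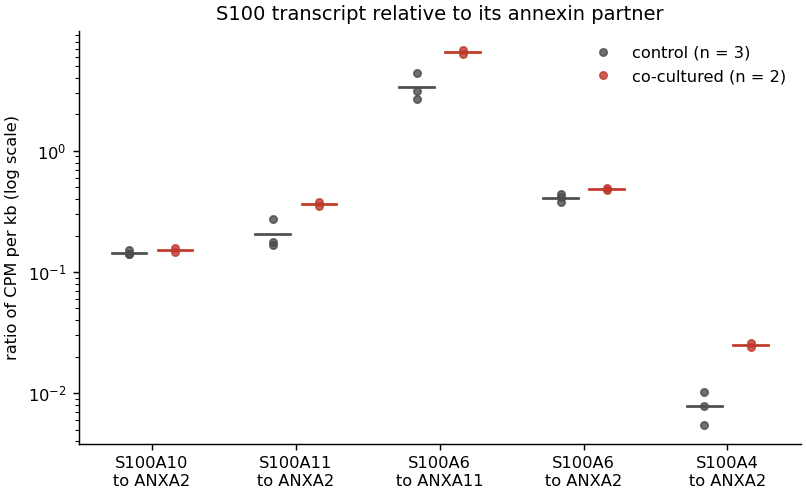
Points are the ratios of CPM per kilobase of an S100 transcript to its annexin partner in each library, on a log axis, for 5 pairs. The control and co-cultured points of S100A10 to ANXA2 mix between 0.140 and 0.158, and in the other 4 pairs both co-cultured points lie above the control points.

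The S100 cluster on chromosome 1 was then read along its length. Between the outermost S100 genes, chr1:151982915-153632039, 90 genes are annotated, of which 15 are S100 genes and 11 are members. Of these 11, 7 were tested and 5 were called higher (S100A10, S100A11, S100A6, S100A4 and S100A2), beside 18.4% of all genes tested. S100A4 and S100A2 passed the filter through the co-cultured libraries. Outside the cluster, S100P was tested and called higher, and S100B and S100Z were under the filter. Only 2 of the 75 other genes in the region had enough counts for a test. PGLYRP4, which encodes a peptidoglycan recognition protein, had 9, 0 and 3 counts in control libraries, and 34 and 38 counts in co-culture (log2 fold change 3.31, edgeR adjusted p = 0.00430). PGLYRP4 also passed the filter through the co-cultured libraries, which favoured a rise, so its p is not evidence of a change in the region. The antisense entry BX470102.1, which shares 23 exonic bases with S100A6 on the other strand, had 17, 20 and 14 counts in control libraries, and 11 and 19 counts in co-culture (log2 fold change 0.01, adjusted p = 0.992). Neighbours within the cluster differed widely in level. S100A6 had 374 to 1104 counts per library while S100A5 beside it had at most 1.

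**Figure D4:**
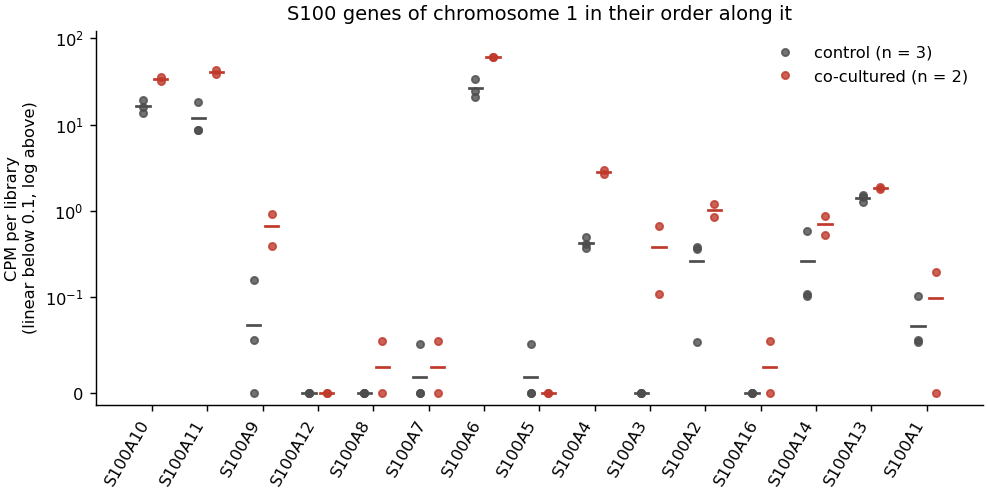
CPM of the 15 S100 genes in their order along chromosome 1, 1 point per library, on an axis that is linear below 0.1 and logarithmic above. S100A10, S100A11 and S100A6 stand out in every library, S100A4 and S100A2 have co-cultured points above the control points, and S100A12 is at 0 in all libraries.

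Partners of the annexins and S100 proteins were also listed. Of 36 ligands, receptors and binding proteins, 25 were tested, 6 were called higher and 1 lower, beside 18.4% and 15.0% of all genes tested, and the median log2 fold change was -0.05. PLAU, the urokinase that activates plasminogen, was at 2.50, 2.16 and 2.36 CPM in control libraries, and at 8.74 and 9.58 CPM in co-culture (log2 fold change 1.97, SE 0.179, edgeR adjusted p = 0.000111). AHNAK, a giant scaffold protein that binds the S100A10 and annexin A2 complex, was at 369, 421 and 459 CPM in control libraries, and at 972 and 785 CPM in co-culture (log2 fold change 1.08, SE 0.119, edgeR adjusted p = 0.000268). IQGAP1, a scaffold of the actin cortex, had a log2 fold change of 0.61 (edgeR adjusted p = 0.00155). CACYBP, the S100A6-binding protein, BSG and PPP5C were the others called higher. The lower one was PLAUR, the urokinase receptor, at 5.21, 7.30 and 6.86 CPM in control libraries, and at 4.04 and 3.17 CPM in co-culture (log2 fold change -0.83, edgeR adjusted p = 0.0183). FPR2, the formyl peptide receptor for annexin A1, had no reads in any library. CACYBP, BSG, PPP5C, PLAUR and FPR2 were named after their values were seen.

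Among 29 genes of membrane repair, a process in which annexins seal torn membranes with calpains and ESCRT proteins, 25 were tested, 5 were called higher and 3 lower, beside 18.4% and 15.0% of all genes tested, and none was a DEG by the study's criterion. The median log2 fold change was 0.05. CAPNS1, the small calpain subunit, was lower (-0.69, edgeR adjusted p = 0.000972), whereas CAPN2, a large calpain subunit (0.60, adjusted p = 0.00267), and CHMP2B, an ESCRT protein (0.67, adjusted p = 0.00197), were higher. Of 48 other calcium sensors, which include calmodulins, copines and neuronal calcium sensors, 32 were tested, 10 were called higher and 3 lower, beside the same 18.4% and 15.0%, with a median of 0.03. The smallest p-values were those of CPNE8 (log2 fold change 0.92, edgeR adjusted p = 0.000463), CALB1, a calcium buffer of neurons (2.26, adjusted p = 0.00140), and CPNE7 (-1.01, adjusted p = 0.00250). The 10 listed genes outside the rule that carry S100-like domains, such as FLG of the epidermis, were all under the filter.

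**Figure D5:**
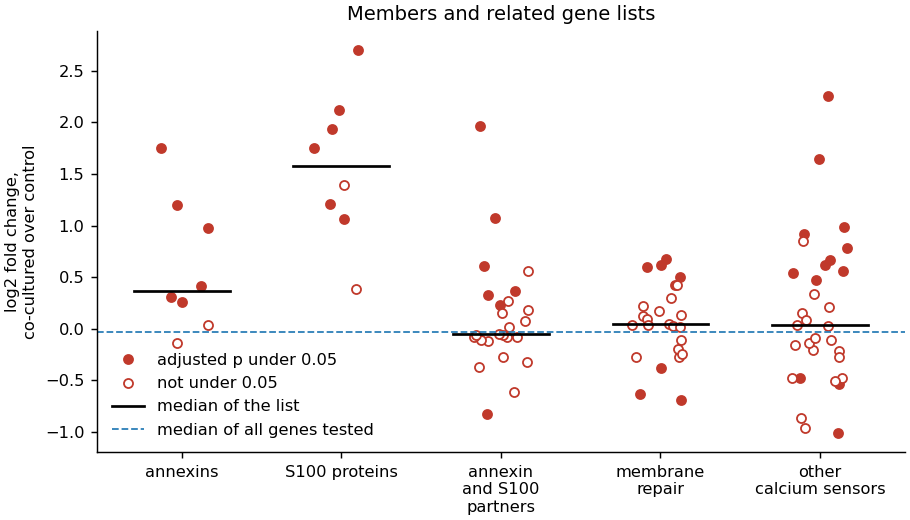
Points are log2 fold changes of co-cultured over control for the tested genes of the annexins, the S100 proteins and 3 related lists. S100 points reach from 0.38 to 2.70 and lie above 0, and the medians of the partner, membrane repair and calcium sensor lists are -0.05, 0.05 and 0.03.

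Entries derived from the members held few reads. The processed pseudogene ANXA2P2 had 8, 5 and 5 counts in control libraries, and 16 and 5 counts in co-culture, beside 2484 to 5806 counts of ANXA2 itself, and its opposite strand had 28 to 33 counts in control libraries, and 4 and 11 counts in co-culture. ANXA2P1 had at most 1 count, with 13 to 20 counts on its opposite strand. The gene-level counts hold reads with a single best position, so reads that fit both ANXA2 and a copy are missing from both. ANXA7 shares 105 exonic bases with an antisense entry, AL512656.1, which the strand-specific counts keep apart. Keratinocyte markers, which often accompany S100A2 and S100A14 in epithelia, summed to 15.0 to 22.5 CPM in control libraries, and 28.3 and 28.7 CPM in co-culture, nearly all from KRT10 (log2 fold change 0.67), and the other 9 had at most 3 counts in any library. Their part in the S100 values was not tested.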

How the data were processed

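RNA-Seq libraries of NCI-H209, 3 control and 2 co-cultured, were deposited as read counts per gene, without normalization, in STAR's layout of an unstranded column and a column for each strand. Per the submitters' processing notes the tools were CASAVA 1.8, STAR 2.6.1b and DESeq2 on GRCh38, and the identifiers match GENCODE 29. The libraries were directional and rRNA-depleted, and 92.3% to 93.1% of gene reads lay on the strand used. Between 30.7% and 33.6% of a library's reads were counted on genes. The authors' comparison table gave gene names only, and its fold changes and p-values were not used.

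Genes passing filterByExpr were normalized by TMM and compared by edgeR 4.0.16 (R 4.3.3) with the quasi-likelihood test, all 5 libraries in 1 fit and Benjamini-Hochberg adjustment over 20360 genes. The biological coefficient of variation was 10.2%. Each standard error is the size of the fitted log2 fold change over the root of its F statistic. The scripts were tested on simulated data with 200 changed genes. At an adjusted p under 0.05 they called 149 of these, with 65 of the 100 genes changed by 1 on the log2 scale. Unchanged genes made up 11.8% of the calls, more than the threshold implies. CPM values use TMM library sizes, and intervals are 95%. With 3 libraries against 2, precision for single members rests on a spread shared across genes.

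Members and gene lists were chosen with earlier results of these data known, and lists came from general knowledge. Named were members with a mean of at least 1 CPM or an adjusted p under 0.05, the remaining members by their counts, up to 3 called genes with the smallest p per list, and derived entries with over 10 counts in a library on either strand that are pseudogenes or antisense. Alternatives were DESeq2 1.42.0, 2 normalizations, 2 count filters, unstranded counts, protein-coding genes, a replicate block, the study's criterion and each library left out. Leaving out control replicates 1 and 2 together was added after the data were seen. Groups of 2 and 3 libraries were not tested for outlying libraries. The value of 1 marker gene is not reported here.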

Additional observations from a re-analysis of the deposited data

Results flagged for a closer look

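Reads on the strand opposite to a family gene are not used in the comparisons. ANXA13 and S100A1 are given because both co-cultured libraries lay above all control libraries there, each with over 3 counts. They were picked by this difference, so their values are not a test of it. For ANXA13, an intestinal annexin with no count on its own strand, the opposite strand held 11, 8 and 13 counts in control and 33 and 25 counts in co-cultured libraries, a co-cultured mean of 1.68 counts per 1000000 counts on genes (CPM) against 0.572 CPM in control, and no exon is annotated there. For S100A1 the opposite strand held 43, 46 and 32 counts in control and 51 and 55 counts in co-cultured libraries, a co-cultured mean of 3.13 CPM, where 589 bases of its exons overlap S100A13, AL162258.1 and AL162258.2.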

How the results depend on the processing

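No member changed the direction of a call, and no member was called lower, under any alternative. Of the 12 members called higher, 8 kept an adjusted p under 0.05 in every alternative fit in which they were tested, and 7 of these also met the study's criterion, which ANXA2 missed. ANXA5, ANXA7, ANXA11 and S100A2 lost it in 17 fits among those set at the start, 8 of them for ANXA11. The number of annexins called higher was 6, and 3 to 6 when 1 library was left out, with 3 without co-cultured replicate 1 and 3 without co-cultured replicate 2. Under the study's criterion it was 2 annexins and 2128 of all genes. Over all genes, 6809 were called, and 2734 to 9897 with 1 library left out, with 2734 and 3023 without co-cultured replicates 1 and 2 and 9897 without control replicate 1. S100 genes called higher numbered 6, and 5 to 6 when 1 library was left out, where a lone co-cultured library was assumed to vary like the others. It was 4 when every library had to hold 10 counts or more, 5 by DESeq2, and 8 when 1 count in any library was enough, S100A3 with no control count among them. The log2 difference of S100A4 to ANXA2 was 0.86 with unstranded counts. Upper-quartile normalization moved the split of all genes from 3750 higher and 3059 lower to 3076 and 3929, and the median of all genes to -0.11, with 5 annexins and 6 S100 genes higher. With the replicate number as a block, 4 annexins, 6 S100 genes and 4824 of all genes were called. Nothing in the labels pairs equal numbers. The deviations of equal-numbered libraries correlated at -0.114 and -0.067. The deviations of the 2 co-cultured libraries mirror each other, so control 1 with co-cultured 2 gave 0.114 and control 2 with co-cultured 1 gave 0.067. These correlations therefore cannot decide on a pairing. Without control replicates 1 and 2 together, an alternative added after the data were seen, 6 annexins, 7 S100 genes and 8447 of all genes were called, under the same assumption for the lone control library. In that fit S100A14 was called (edgeR adjusted p = 0.0220) and S100A2 was not (adjusted p = 0.0628). The cause of these differences was not tested. Depth limits the members under 10 counts, for which a missing call does not show equal levels.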
